A study of Mus musculus with 2 samples.

Results

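The insulin-like growth factors (IGFs), their receptors and their binding proteins were followed across the cell classes of the newborn mouse lung. The 10 members, *Igf1*, *Igf2*, *Igf1r*, *Igf2r* and *Igfbp2* to *Igfbp7*, were chosen by gene symbol, with earlier results of these data known. All 10 had unique molecular identifiers (UMIs) in both batches, among 26867 genes with a UMI in the cells kept. Whole lungs of wild type female C57BL/6J mice at postnatal day 1 were dissociated, and single cells were captured in droplets with barcoded beads (Drop-seq), 1 mouse in each of 2 batches. No treatment, genotype or age was compared, so the comparisons are between cell classes within the same mice. Cells with at most 10% mitochondrial UMIs were kept, 2388 in Batch 1 and 5615 in Batch 2. A p-value rests on 2 mice. With the batch difference removed, it measures only how far class differences vary between them, by a spread shared over all classes tested.

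IGF1 and IGF2 are secreted peptides that drive growth of fetal and newborn tissue. Both act through the receptor tyrosine kinase IGF1R, while IGF2R, the cation-independent mannose 6-phosphate receptor, carries IGF2 to lysosomes and lowers its level. The classical binding proteins, here IGFBP2 to IGFBP6, hold the peptides in the matrix and in blood with high affinity, and proteases such as PAPPA release them. IGFBP7 binds IGFs only weakly and is known as a matrix protein of vessels. *Igf2* is imprinted and expressed from the paternal allele, *Igf2r* from the maternal allele.

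*Igfbp2*, *Igfbp5* and *Igfbp6* had their highest levels in the same cells, the mesothelial-like cells, and their promoter windows are shown for this reason, each from 250 bases before to 50 bases after the RefSeq start (GRCm38.p6), read 5′ to 3′ along the gene. The windows lie at chr1:72824230-72824529 on the plus strand (*Igfbp2*), chr1:72874816-72875115 on the minus strand (*Igfbp5*) and chr15:102143936-102144235 on the plus strand (*Igfbp6*). Capitals mark matches, on either strand, to a TATA box (TATAAA), a GC box (GGGCGG), a site of the type bound by WT1 and EGR1 (GCGGGGGCG) or a CCAAT box.
Igfbp2: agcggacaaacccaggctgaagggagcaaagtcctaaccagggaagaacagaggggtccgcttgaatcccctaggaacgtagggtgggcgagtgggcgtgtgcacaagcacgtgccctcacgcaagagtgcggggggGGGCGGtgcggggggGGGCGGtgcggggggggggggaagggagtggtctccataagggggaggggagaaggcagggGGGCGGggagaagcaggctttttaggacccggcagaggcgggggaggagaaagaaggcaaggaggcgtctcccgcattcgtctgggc
Igfbp5: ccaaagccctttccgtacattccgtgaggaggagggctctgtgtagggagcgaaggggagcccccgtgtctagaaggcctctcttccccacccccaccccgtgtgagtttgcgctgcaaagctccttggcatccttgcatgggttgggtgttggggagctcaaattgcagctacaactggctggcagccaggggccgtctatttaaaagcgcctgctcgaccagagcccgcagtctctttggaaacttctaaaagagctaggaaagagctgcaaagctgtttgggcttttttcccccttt
Igfbp6: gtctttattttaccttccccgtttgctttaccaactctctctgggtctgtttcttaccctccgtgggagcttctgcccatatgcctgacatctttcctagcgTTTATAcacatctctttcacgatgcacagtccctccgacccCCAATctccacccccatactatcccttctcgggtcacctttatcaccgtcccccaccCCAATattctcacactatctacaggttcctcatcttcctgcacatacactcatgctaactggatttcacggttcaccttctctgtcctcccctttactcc
The *Igfbp2* window held 3 GC boxes, which 35.7% of all 32851 windows of the table hold at least once. The *Igfbp6* window held 1 TATA box, on the other strand, and 2 CCAAT boxes, letters found in 13.6% and 37.4% of windows. None of the 4 motifs was in the *Igfbp5* window, and the WT1 and EGR1 type site, present in 2.91% of windows, was in none of the 3. A second RefSeq window of *Igfbp2*, at chr1:72825137-72825436 on the plus strand, held none of the 4 motifs. A match is a description of the letters, and a missing match says only that these letters are not in the window.

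All 10 genes were placed on GRCm38 by their GENCODE symbols. *Igfbp2* (chromosome 1, 72824503 to 72852474, plus strand) and *Igfbp5* (chromosome 1, 72857932 to 72874884, minus strand) are neighbours whose ends lie 5457 bases apart. *Igfbp6* lies on chromosome 15 (102144362 to 102149511, plus strand), *Igfbp7* on chromosome 5 (77349240 to 77408041, minus strand), and *Igfbp3* (7206086 to 7213923, minus strand) and *Igfbp4* (99041244 to 99054392, plus strand) on chromosome 11. *Igf1* lies on chromosome 10 (87858265 to 87937042, plus strand). *Igf2* (142650766 to 142666816, minus strand) and *Igf1r* (67952827 to 68233668, plus strand) lie on chromosome 7, and *Igf2r* on chromosome 17 (12682406 to 12769664, minus strand). Exons of *Igf2* overlap those of *Igf2os* on the other strand and of *Gm49394* on the same strand, and exons of *Igfbp7* overlap those of *Polr2b* on the other strand, so their UMIs may be shared. No exon of the other 8 members overlaps an annotated exon of another gene, and overlap with introns of other genes was not examined.

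The kept cells held 4432553 UMIs in Batch 1 and 18232639 in Batch 2, with medians of 1386.5 and 2014 UMIs per cell, and no cell barcode was shared. Cells were clustered without the 10 members and without the other IGF pathway genes, and classes were named from marker lists. Of 7555 deposited Batch 2 cells, 25.7% were over the mitochondrial limit, against 0.0419% of 2389 in Batch 1. The batches also differed in makeup, with 34.8% of Batch 1 cells and 19.3% of Batch 2 cells in the largest fibroblast class, MatrixFB-1-like. In all, 18 named classes had at least 10 cells in both batches and entered the tests. A level is given as UMIs of the gene per 10000 UMIs of the class, Batch 1 first. Since UMIs were counted at the 3′ end, levels are compared between classes for 1 gene and not between genes.

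The mesothelial-like class, the covering layer of the lung, was small, with 20 cells in Batch 1 and 11 in Batch 2, and all 10 of its markers defined it. *Upk3b*, a uroplakin of the mesothelium, was at 15.2 and 14.0 UMIs per 10000 in these cells, with 0 UMIs in MatrixFB-2-like cells and at most 0.0325 in MatrixFB-1-like cells. *Msln*, encoding mesothelin, was at 38.6 and 48.5, and it was also found in AT1-like cells at 13.9 and 15.6. The whole mesothelial list summed to 93.4 and 103 UMIs per 10000 in mesothelial-like cells and to 2.11 and 1.83 in MatrixFB-2-like cells. Markers of MatrixFB-2 cells, a collagen-rich fibroblast, were present too, 7 of 10 with a sum of 108 and 134 against 209 and 110 in MatrixFB-2-like cells, while *Agtr2*, *Pi16* and *Dpt* were at 0. In the part of the study's cell list that was available, which covers Batch 1 alone, 19 of the 20 mesothelial-like cells of Batch 1 were listed as MatrixFB-2 and 1 was not listed.

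*Igf1* was highest in smooth muscle-like and myofibroblast-like cells. Smooth muscle-like cells held 7.90 UMIs per 10000 in Batch 1 and 6.95 in Batch 2 (mean 7.42 ± 0.670, SD, n = 2), and myofibroblast-like cells 4.44 and 4.54 (mean 4.49 ± 0.0656, SD, n = 2). These were the first and second places among the 18 named classes, and neither overlapped the next. MatrixFB-2-like cells (1.99 and 1.27), macrophage-like cells (2.06 and 1.07) and lymphatic endothelial-like cells (1.24 and 1.81) followed, with overlapping ranges. Vascular mural-like cells, which also carried the smooth muscle list (summed 53.4 and 53.3, against 79.1 and 40.9 in smooth muscle-like and 13.6 and 3.39 in myofibroblast-like cells), had 0 and 2 *Igf1* UMIs. MatrixFB-1-like cells were at 0.738 and 0.144 and all cells together at 0.729 and 0.318. The mesenchymal classes held 85.8% of all *Igf1* UMIs in Batch 1 and 84.8% in Batch 2.

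*Igf1* was found in a minority of the cells even where its level was highest. It was detected in 47.6% and 40.5% of smooth muscle-like cells, with single cells reaching 9 UMIs in Batch 1 and 15 in Batch 2. After thinning every cell to 600 UMIs, so that depth is equal, these shares were 30.5% and 26.0%. In lymphocytes, B cells and T, natural killer and innate lymphoid cells together, which are presumed not to make IGFs or binding proteins, 2.56% of 39 cells and 0 of 75 cells had an *Igf1* UMI, the latter allowing a share of up to 4.00%. The median depth was 1411 and 1768 UMIs in lymphocytes and 1168 and 1594 in smooth muscle-like cells. Intervals and limits of this kind cover counting error only, and they limit the share of cells with a UMI, not of cells that express the gene.

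*Igf2* was high in mesothelial-like cells and in the lymphatic and arterial endothelium, and low in the capillaries. It was highest in mesothelial-like cells (15.4 and 29.4 UMIs per 10000, mean 22.4 ± 9.89, SD, n = 2), followed by lymphatic endothelial-like cells (12.1 and 26.3), arterial endothelial-like cells (9.76 and 20.1) and vascular mural-like cells (2.67 and 12.2). Each of these classes overlapped the next in the order, and every one of them was higher in Batch 2. Below them, smooth muscle-like cells were at 2.28 and 3.93, myofibroblast-like cells at 2.5 and 3.57 and venous endothelial-like cells at 2.29 and 3.44. AT2-like cells, the surfactant-making epithelium, were at 0.297 and 0.686. General capillary endothelial-like cells, the largest endothelial class, were at 0.369 and 0.662 and aerocyte-like cells at 0 and 0.206. Endothelial cells as a whole held 42.9% and 44.7% of the *Igf2* UMIs, and epithelial cells 6.94% and 25.4%. Airway classes, too small in Batch 1 to be tested, had *Igf2* too. An unnamed airway cluster with *Mcidas* and *Ccno* held 1.79% and 8.5% of all *Igf2* UMIs. Secretory airway-like cells held 0.595% and 2.92%, and ciliated-like cells 0.794% and 1.39%.

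In single cells *Igf2* was close to uniform in the mesothelium and patchy in arteries. It was detected in 19 of 20 and in 11 of 11 mesothelial-like cells (95% and 100%, Wilson 95% intervals 76.4% to 99.1% and 74.1% to 100%), and in 60% and 100% after thinning. In lymphatic endothelial-like cells it was detected in 81.0% and 96.5%. Arterial endothelial-like cells carried it in 50.0% and 71.7%, and the 10% of these cells with most of it held 54.7% and 49.8% of their *Igf2* UMIs. Among lymphocytes, 0 of 39 and 1 of 75 cells had an *Igf2* UMI. Of 21 erythroid-like cells in Batch 2, 9.52% had *Igf2*, with 21 UMIs in all.

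*Igf1r* was low in every class. The highest of the 18 classes was smooth muscle-like at 1.14 and 0.558 UMIs per 10000, followed by pericyte-like cells at 1.07 and 0.342 and MatrixFB-1-like cells at 0.544 and 0.658. All cells together were at 0.332 and 0.325. The ranges of the leading classes overlapped each neighbour in the order, so no class stood apart for this receptor at this depth. It was detected in 5.28% and 8.96% of all cells.

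The leading classes for *Igf2r* were separate in their batch values. Pericyte-like cells were highest at 3.98 and 5.43 UMIs per 10000 (mean 4.71 ± 1.03, SD, n = 2), vascular mural-like cells followed at 2.37 and 2.29, MatrixFB-1-like cells at 1.20 and 1.29 and MatrixFB-2-like cells at 0.843 and 0.980. None of these 4 places overlapped the next, which with n = 2 is a description and not a test. The step from MatrixFB-1-like to MatrixFB-2-like cells was not called when tested (below). *Igf2r* was detected in 36.4% and 55.0% of pericyte-like cells, against 0 of 39 and 5.33% of 75 lymphocytes, and in 16.4% and 26.2% after thinning. The median depth of pericyte-like cells was 1098 and 1709 UMIs. Mesothelial-like cells, where *Igf2* was highest, had 2 *Igf2r* UMIs in Batch 1 and 1 in Batch 2.

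**Figure D1:**
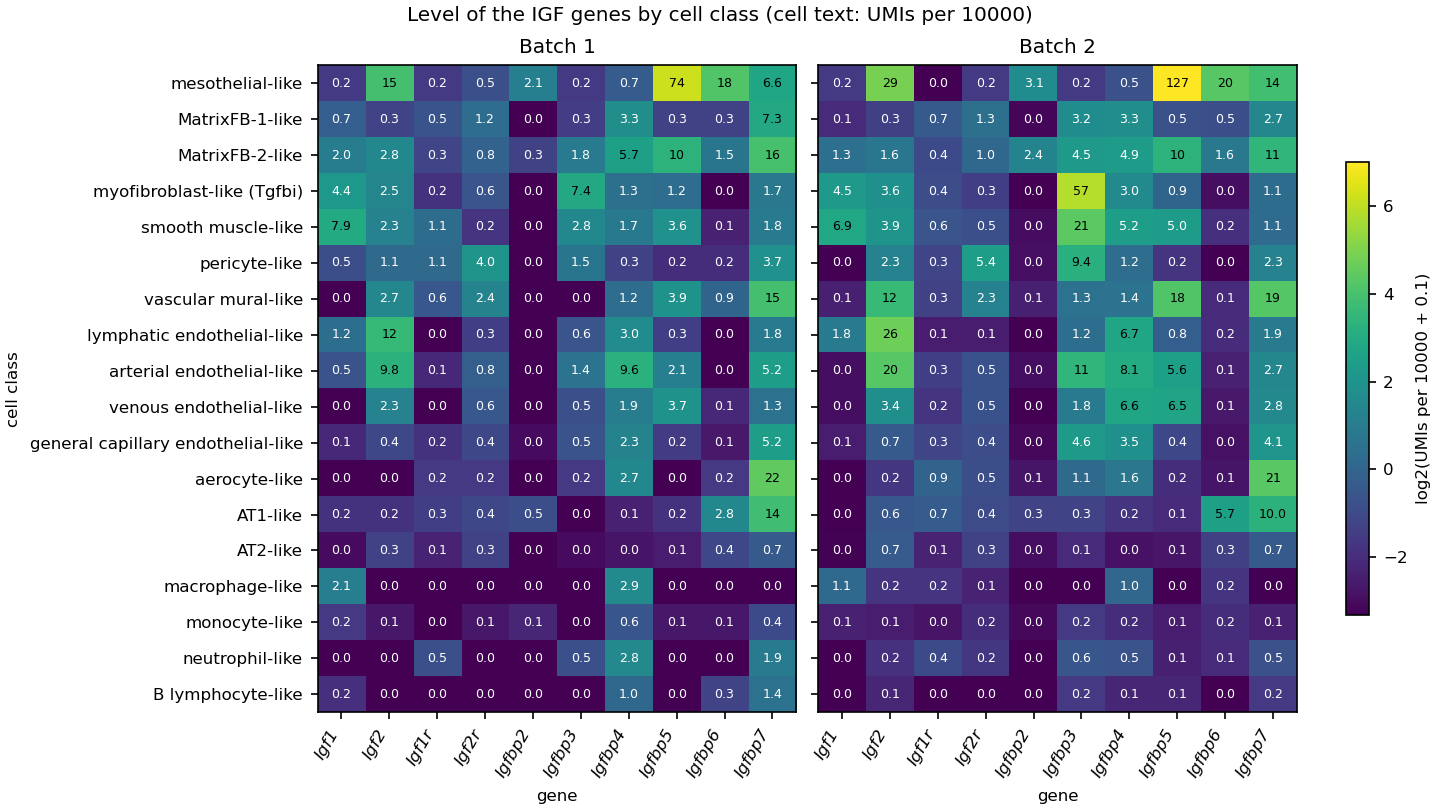
Level of each of the 10 genes (columns) in the 18 classes tested (rows) for Batch 1 and Batch 2. Colour is log2 of UMIs per 10000 plus 0.1 and the text in each cell is UMIs per 10000. *Igfbp5* is at 74.4 and 127 in mesothelial-like cells, and *Igfbp3* is higher in Batch 2 in most classes.

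*Igfbp5*, a matrix-bound member of the family, was highest in mesothelial-like cells. Its level there was 74.4 UMIs per 10000 in Batch 1 and 127 in Batch 2 (mean 101 ± 37.1, SD, n = 2), from 318 and 526 UMIs. It ranked 4th and 3rd by UMIs among all genes in these cells, a rank of counts only. The next class, vascular mural-like, was at 3.86 and 18.1 and did not overlap, and MatrixFB-2-like cells were at 10.2 and 10.1. MatrixFB-1-like cells were at 0.308 and 0.485. Ciliated-like cells, which had only 2 cells in Batch 1 and were not tested, were at 17.9 and 10.4.

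Nearly every mesothelial-like cell carried *Igfbp5*. It was detected in 95% and 100%, and in 80.0% and 100% after thinning, against 2.56% and 1.33% of lymphocytes. The median depth of mesothelial-like cells was 1989.5 and 2462 UMIs. Single cells ranged from 0 to 196 UMIs per 10000 of the cell in Batch 1 (median 67.8) and from 16.9 to 276 in Batch 2 (median 102), and 1 Batch 2 cell held 224 of the 526 UMIs. In MatrixFB-2-like cells the gene was detected in 29.8% and 38.9%, and the 10% of cells with most of it held 77.1% and 74.6% of its UMIs. Although they made up 0.838% and 0.196% of cells, mesothelial-like cells held 38.3% and 17% of all *Igfbp5* UMIs. MatrixFB-2-like cells held 32% and 17.1%, and all epithelial cells 8.18% and 23.9%.

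*Igfbp6*, which prefers IGF2 over IGF1, was also highest in mesothelial-like cells, with AT1-like cells next. Mesothelial-like cells were at 18.02 and 20.03 UMIs per 10000 (mean 19.02 ± 1.42, SD, n = 2), AT1-like cells, the flat gas-exchange epithelium, at 2.76 and 5.66, and MatrixFB-2-like cells at 1.53 and 1.63. The first place and the second each stood clear of the next. It was detected in 95% and 90.9% of mesothelial-like cells, in 37.7% and 59.3% of AT1-like cells and in 2.56% and 0 of lymphocytes, the last allowing up to 4.00%. Alveolar cells that carried markers of both AT1 and AT2 cells, which were left unnamed, were at 1.57 and 1.45. Epithelial cells held 32.2% and 75.5% of the *Igfbp6* UMIs, and mesothelial-like cells 28.2% and 6.12%.

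*Igfbp2* was rare but had the same leading class. Mesothelial-like cells were at 2.11 and 3.14 UMIs per 10000, from 9 and 13 UMIs, and the gene was detected in 25.0% and 72.7% of them. Among lymphocytes 0 of 39 and 0 of 75 cells had a UMI, which allows up to 7.69% and 4.00%. MatrixFB-2-like cells were at 0.306 and 2.44, so the ranges of the first and second place overlapped. In Batch 2 the 10% of MatrixFB-2-like cells with most of it held 98.4% of the 127 *Igfbp2* UMIs, and 11.1% of the cells had any. Airway cells with *Mcidas* and *Ccno*, an unnamed cluster with 7 and 44 cells, were at 1.64 and 0.718, and AT1-like cells at 0.459 and 0.332. Ciliated-like cells were at 0 in 2 cells of Batch 1 and at 2.36 in 33 cells of Batch 2.

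Most mesothelial-like cells carried 3 of these genes together. *Igf2*, *Igfbp5* and *Igfbp6* were all detected in 17 of 20 and in 10 of 11 mesothelial-like cells, against 5 of 141 and 6 of 208 MatrixFB-2-like cells. In Batch 1 each gene was missing from 1 mesothelial-like cell, and in Batch 2 only *Igfbp6* was, from 1 cell. The overlap there is the lowest that such detection allows, so it adds nothing to the detection of each gene taken alone. *Sfrp2*, a secreted WNT inhibitor on the MatrixFB-2 list, was at 12.9 and 6.76 UMIs per 10000 in mesothelial-like cells and at 0.0766 and 0.0576 in MatrixFB-2-like cells. Of the mesothelial-like cells, 15 and 8 had *Sfrp2*, and *Igfbp5* was at 63.7 and 137 in them and at 116.8 and 93.3 in the 5 and 3 cells without it. The summed level of the 10 members was 118.4 and 195.2 in mesothelial-like cells and 41.2 and 39.0 in MatrixFB-2-like cells. *Igfbp5* gave 74.4 and 127 of the mesothelial-like sum. *Igf1*, *Igfbp3* and *Igfbp4* were lower in mesothelial-like than in MatrixFB-2-like cells, so the sum does not stand for each member.

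**Figure D2:**
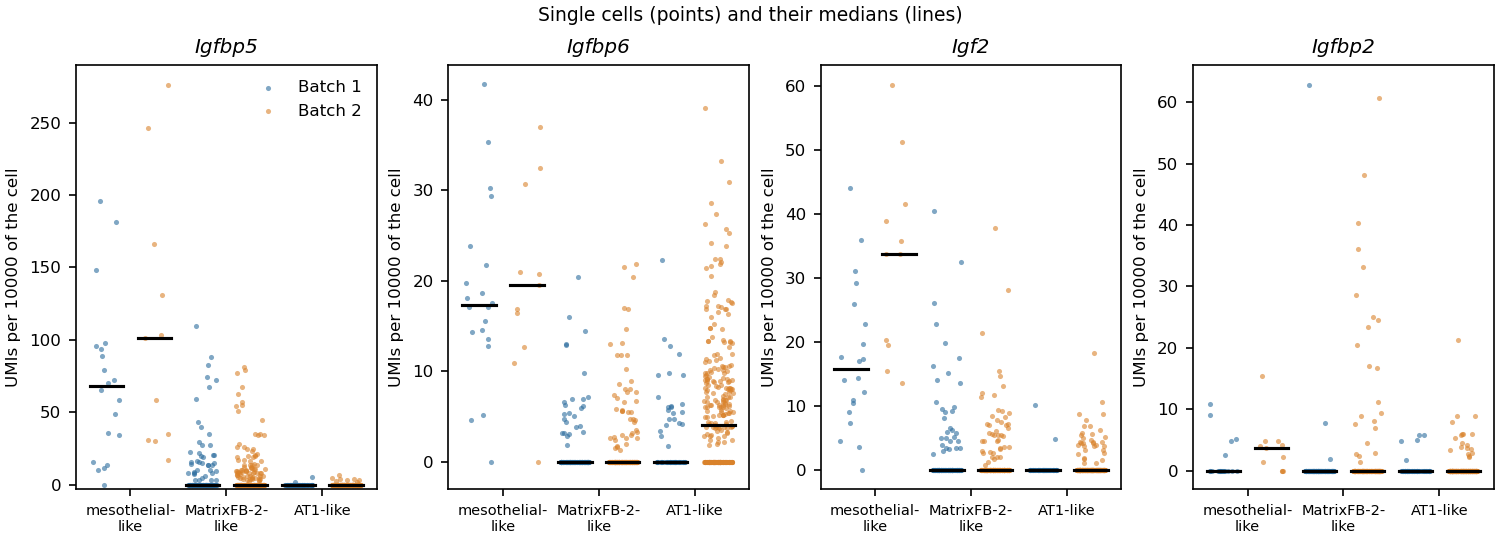
UMIs per 10000 of each cell for *Igfbp5*, *Igfbp6*, *Igf2* and *Igfbp2* in single mesothelial-like, MatrixFB-2-like and AT1-like cells, Batch 1 in blue and Batch 2 in orange, with a black line at the median of each group. The medians of *Igfbp5* were 67.8 and 102 in mesothelial-like cells and 0 in both other classes, and AT1-like cells had a median above 0 only for *Igfbp6* in Batch 2 (4.11).

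*Igfbp3*, the main carrier of IGFs in blood, was highest in myofibroblast-like cells, with very different levels in the 2 batches. Myofibroblast-like cells were at 7.41 and 57.2 UMIs per 10000 (mean 32.3 ± 35.2, SD, n = 2), smooth muscle-like cells at 2.76 and 20.9, arterial endothelial-like cells at 1.43 and 10.9 and pericyte-like cells at 1.53 and 9.36. MatrixFB-2-like cells were at 1.80 and 4.51 and general capillary endothelial-like cells at 0.521 and 4.57. The other vessel classes were lower, with venous endothelial-like cells at 0.481 and 1.81, lymphatic at 0.551 and 1.21, aerocyte-like at 0.225 and 1.08 and vascular mural-like at 0 and 1.32. Within each batch myofibroblast-like cells were the highest of the 18 classes, but the ranges over both batches overlapped down the order. UMIs of the gene were found in 50.6% and 93.3% of myofibroblast-like cells, against 2.56% and 8% of lymphocytes, at median depths of 1077 and 1319.5 UMIs. The myofibroblast-like class rested on 5 of its 7 markers, with none among its 10 leading genes, and *Tgfbi* was higher in smooth muscle-like cells (110 and 103) than in it (42.9 and 26.1). The whole list of 7 summed to 168.4 and 122.9 in smooth muscle-like cells and to 63.0 and 41.9 in the class named for it, so the name rests on a weak match.

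*Igfbp4*, the substrate of PAPPA, was broadly expressed. Arterial endothelial-like cells were highest at 9.63 and 8.12 UMIs per 10000 (mean 8.87 ± 1.07, SD, n = 2) and stood clear of MatrixFB-2-like cells at 5.67 and 4.94. Lymphatic (3.03 and 6.72) and venous endothelial-like cells (1.93 and 6.65) and MatrixFB-1-like cells (3.31 and 3.34) overlapped their neighbours. UMIs of the gene were found in 67.9% and 71.7% of arterial endothelial-like cells and in 10.3% and 13.3% of lymphocytes. Mesothelial-like cells had 3 UMIs in Batch 1 and 2 in Batch 2 (0.702 and 0.483), and AT2-like cells were at 0.0495 and 0.0409.

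*Igfbp7* had its highest level in aerocyte-like cells, named for the capillary endothelium specialised for gas exchange. They were at 22.3 and 20.7 UMIs per 10000 (mean 21.5 ± 1.13, SD, n = 2), clear of all others. The class rested on 3 of its 6 markers (*Car4*, *Ednrb* and *Tbx2*), and the pan-endothelial list matched it more closely than the aerocyte list. Vascular mural-like (15.4 and 19.2), MatrixFB-2-like (15.7 and 11.1), AT1-like (14.1 and 9.96) and mesothelial-like cells (6.55 and 14.5) followed with overlapping ranges. General capillary endothelial-like cells were at 5.19 and 4.08 and AT2-like cells at 0.668 and 0.660. UMIs of the gene were found in 82.0% and 82.8% of aerocyte-like cells, against 7.69% and 4.00% of lymphocytes, at median depths of 1062 and 1302.5 UMIs in aerocyte-like cells.

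**Figure D3:**
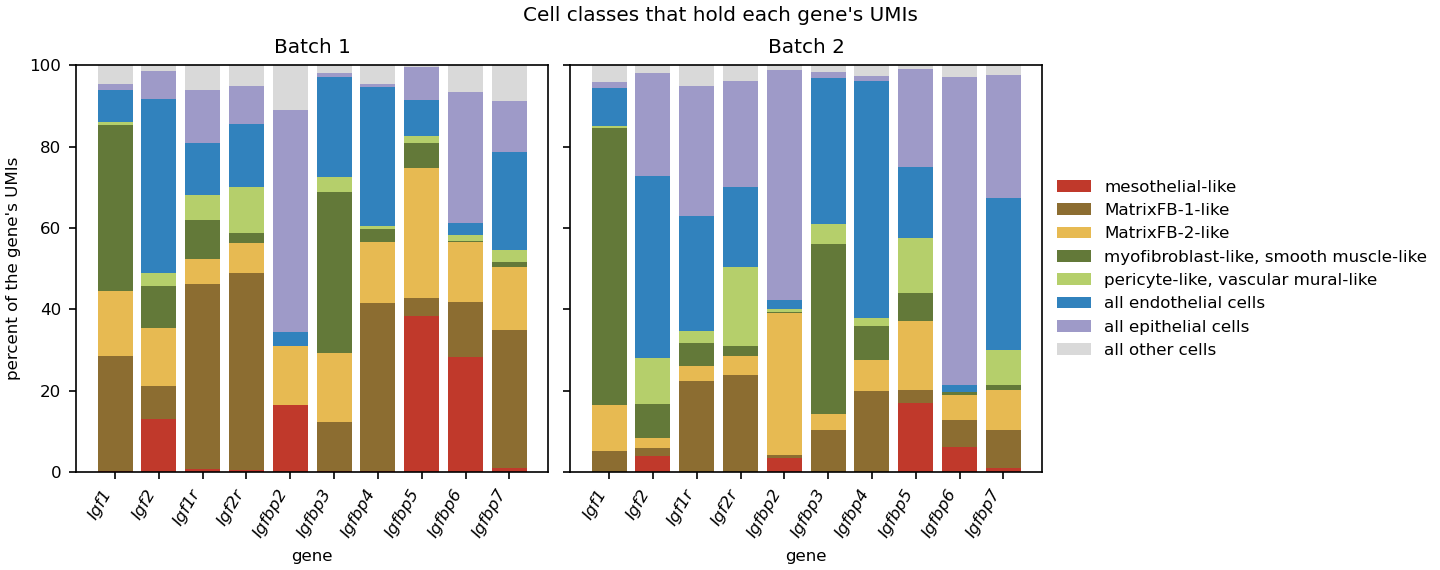
Percent of each gene's UMIs (y axis) held by groups of cell classes (colours) for Batch 1 and Batch 2. Mesothelial-like cells hold 38.3% and 17% of *Igfbp5* UMIs, and the mesenchymal classes hold 85.8% and 84.8% of *Igf1* UMIs.

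Differences between classes were tested with edgeR's quasi-likelihood test on UMIs summed by class and batch, with batch as a block, over 7786 genes, with Benjamini-Hochberg adjustment. A gene was called at an adjusted p under 0.05, and all adjusted p-values below are from this test unless DESeq2 is named. Because classes were clusters of the same cells, genes that vary with their markers are favoured, and only leaving the members out of the clustering sets them apart. In all, 32 member differences were called over 6 comparisons, and each had the same direction in both batches taken alone. By DESeq2 the median log2 fold change of all genes was higher than in the edgeR fit in each comparison, going from -0.08 to 0.03 (MatrixFB-2-like), -0.06 to 0.28 (myofibroblast-like), -0.14 to 0.20 (pericyte-like), -0.04 to 0.07 (AT1-like) and -0.25 to -0.06 (lymphatic), with the mesothelial-like value given below. Of 25 other genes of the IGF pathway, all had a UMI and 18 were tested.

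The first comparison asked how the fibroblast classes differ. MatrixFB-2-like cells had 7 of the 10 members higher than MatrixFB-1-like cells and none lower, while 2.05% of all genes were called, 1.72% higher and 0.334% lower. The members' median log2 fold change was 1.67, against -0.08 for all genes. Called were a ligand pair, *Igf1* and *Igf2*, and 5 binding proteins. Both receptors and *Igfbp4* were not. The study had reported *Igf1*, *Igf2*, *Igfbp2*, *Igfbp5* and *Igfbp6* as enriched in its MatrixFB-2 cells from these same batches. The count of 7 among 10 members is therefore not independent of results already known from these data.

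*Igfbp5* was at 10.2 and 10.1 UMIs per 10000 in MatrixFB-2-like cells and at 0.308 and 0.485 in MatrixFB-1-like cells, a log2 fold change of 4.63 ± 0.39 (SE, adjusted p = 8.63e-12). The batches were close to each other and the classes did not overlap. *Igf2* was at 2.76 and 1.58 against 0.333 and 0.292, a log2 fold change of 2.72 ± 0.42 (adjusted p = 1.93e-05). *Igfbp2* had 2 UMIs in MatrixFB-1-like cells, both in Batch 2, against 135 in MatrixFB-2-like cells, a 281-fold ratio of the pooled levels with an exact counting interval of 76.3 to 2340 (adjusted p = 8.97e-08). *Igf1* differed by 1.95 ± 0.46 (adjusted p = 0.0108), *Igfbp6* by 1.95 ± 0.41 (adjusted p = 0.00226), *Igfbp3* by 1.39 ± 0.38 (adjusted p = 0.0354) and *Igfbp7* by 1.34 ± 0.38 (adjusted p = 0.0460). In Batch 1 and Batch 2 alone, with a prior count of 2 and no test, the log2 difference was 1.25 and 2.70 for *Igf1*, 2.44 and 0.39 for *Igfbp3* and 2.91 and 5.43 for *Igfbp2*, so the size of these 3 depends on the batch.

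Without the batch block 3 members stayed called (*Igf2*, *Igfbp2* and *Igfbp5*) and 56 genes in all, and by DESeq2 4 members (these 3 and *Igfbp6*). *Igf1r* (log2 fold change -0.82, adjusted p = 0.554), *Igf2r* (-0.57, adjusted p = 0.599) and *Igfbp4* (0.55, adjusted p = 0.740) did not pass. Of the other pathway genes, *Pik3r1*, a regulatory subunit of phosphoinositide 3-kinase, was lower (-1.35 ± 0.38, adjusted p = 0.0455) and none was higher. The *Pik3r1* call was lost without the block (adjusted p = 0.879), by DESeq2 (0.200), with own-batch clusters (0.218), without the filter on low counts (0.109) and without doublets (0.0585).

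The cell list gives another view of the same fibroblasts, and the classes match it only in part. Of 114 MatrixFB-2-like cells in the list, 57 were listed as MatrixFB-2, so this class is not the study's subtype. Of 689 listed MatrixFB-1-like cells, 677 were MatrixFB-1. Of 71 listed myofibroblast-like cells, 39 were MyoFB-1, and of 60 smooth muscle-like cells, 35 were Smooth Muscle. Of 79 Batch 1 cells listed there as MatrixFB-2, 19 were mesothelial-like. These 19 held 25.1% of the listed cells' UMIs, but 73.5% of their *Igfbp6* UMIs, 60% of *Igfbp2*, 56.0% of *Igfbp5* and 53.2% of *Igf2*. For *Igf1* they held 3.12%, for *Igfbp3* 3.23% and for *Igfbp4* 2.88%. When mesothelial-like cells were counted as MatrixFB-2-like in the test, a choice made after seeing the data, 7 members were called higher as before.

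Against the mean of both fibroblast classes, mesothelial-like cells had 4 members higher and 2 lower, while 10.8% of all genes were called, 4.82% higher and 6% lower. By DESeq2 the split of all genes was 731 higher and 164 lower, against 375 and 467, and the median log2 fold change of all genes moved from -0.51 to 0.26, so changes near 0 have no firm sign here. The 4 higher members are far from this range.

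*Igfbp5* was higher by 5.18 ± 0.30 on the log2 scale (SE, adjusted p = 6.04e-18), with 74.4 and 127 UMIs per 10000 against at most 10.2 in either fibroblast class. *Igf2* was higher by 4.24 ± 0.34 (adjusted p = 1.20e-13) and *Igfbp6* by 4.21 ± 0.34 (adjusted p = 1.45e-13). *Igfbp2* was higher by 4.35 ± 0.69 (adjusted p = 9.20e-06), though against MatrixFB-2-like cells alone its batch ranges overlapped.

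The lower members were *Igfbp3* and *Igfbp4*. *Igfbp3* had 1 UMI in mesothelial-like cells of each batch (log2 fold change in the fit -3.73 ± 0.79, adjusted p = 0.000560). The pooled level was 15.2-fold higher in MatrixFB-2-like cells (exact counting interval 4.17 to 126) and 8.72-fold higher in MatrixFB-1-like cells (2.4 to 72.2). Pooling ignores that *Igfbp3* differed between the batches. In Batch 1 mesothelial-like cells were at 0.234 UMIs per 10000 and MatrixFB-1-like cells at 0.268. *Igfbp4* differed by -3.24 ± 0.72 (adjusted p = 0.00103). *Igfbp3* was not called without the batch block (adjusted p = 0.246) or by DESeq2 (adjusted p = 0.0543). *Igfbp7* differed by 0.02 (adjusted p = 1). In each batch alone the log2 difference was -1.79 and -4.07 for *Igfbp3*, 3.71 and 2.73 for *Igfbp2* and -1.13 and 1.00 for *Igfbp7*, which had opposite signs in the batches.

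Among the other pathway genes, *Pappa2*, a protease that cuts IGFBP3 and IGFBP5, was at 1.64 and 1.45 UMIs per 10000 in mesothelial-like cells and at most 0.0766 in the fibroblast classes, a log2 fold change of 4.44 ± 0.87 (adjusted p = 0.000278). *Pik3r1* had 0 UMIs in mesothelial-like cells, at least 5.93-fold lower than in MatrixFB-1-like cells at a floor of 3 counts over both batches, and at least 2.51-fold lower than in MatrixFB-2-like cells (adjusted p = 0.00101). No other pathway gene was called.

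Myofibroblast-like cells had 3 members higher and 3 lower than MatrixFB-1-like cells, with 10.4% of all genes called, 4.32% higher and 6.06% lower (336 and 472 genes, against 475 and 301 with DESeq2). *Igfbp3* was at 7.41 and 57.2 UMIs per 10000 against 0.268 and 3.17, a log2 fold change of 4.06 ± 0.39 (SE, adjusted p = 1.25e-10). Both classes were higher in Batch 2, myofibroblast-like cells were the higher class in each batch, and without the batch block the call was lost (adjusted p = 0.0551). *Igf1* was at 4.44 and 4.54 against 0.738 and 0.144, a difference of 3.32 ± 0.47 (adjusted p = 1.11e-06), and *Igf2* differed by 2.89 ± 0.43 (adjusted p = 2.36e-06).

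Lower were *Igfbp7* (-2.13 ± 0.44, adjusted p = 0.000477), *Igf2r* (-2.12 ± 0.46, adjusted p = 0.000983) and *Igfbp6*, which had 1 UMI in all myofibroblast-like cells (16.9-fold lower by pooled level, exact counting interval 2.98 to 673, adjusted p = 0.00266). Of the pathway list 2 were higher and none lower. *Stc1*, encoding stanniocalcin 1, a member of a family of PAPPA inhibitors, was at 3.98 and 1.09 UMIs per 10000 against 0.0162 and 0.0198 (log2 fold change 6.37 ± 0.69, adjusted p = 2.46e-09). *Htra1*, a secreted serine protease that can cut IGFBP5, was at 4.07 and 0.839 against 0.0325 and 0.00990 (6.21 ± 0.66, adjusted p = 2.50e-09). The log2 difference in each batch alone was 2.2 and 4.3 for *Igf1*, -1.35 and -2.31 for *Igf2r*, 5.77 and 3.86 for *Stc1* and 5.45 and 3.75 for *Htra1*.

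Pericyte-like cells had 3 members higher and 2 lower than MatrixFB-1-like cells, with 12.3% of all genes called, 5.64% higher and 6.67% lower (439 and 519 genes, against 627 and 295 with DESeq2). *Igf2r*, at 3.98 and 5.43 UMIs per 10000 against 1.20 and 1.29, differed by 1.59 ± 0.34 on the log2 scale (SE, adjusted p = 0.000689). *Igf2* differed by 2.05 ± 0.45 (adjusted p = 0.000949) and *Igfbp3* by 1.57 ± 0.39 (adjusted p = 0.00322). *Igfbp4* differed by -2.23 ± 0.53 (adjusted p = 0.00216), and *Igfbp6* had 1 UMI in pericyte-like cells (14.1-fold lower by pooled level, exact counting interval 2.48 to 561, adjusted p = 0.00669).

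Both receptor and ligand of the pair *Igf2* and *Igf2r* were thus higher in pericyte-like cells, while *Igf1r* was not called (-0.58, adjusted p = 0.629). With a mitochondrial limit of 5% *Igf2r* was not called (adjusted p = 0.0744), nor was *Igfbp6*, and by DESeq2 neither *Igfbp4* nor *Igfbp6* was. Without the block *Igfbp3* was not called (adjusted p = 0.645). Of the pathway genes reported here, *Stc1* was higher (3.71 ± 0.90, adjusted p = 0.00274). *Pappa* had 2 UMIs in pericyte-like cells and was lower (8.09-fold by pooled level, exact counting interval 2.2 to 67.4, adjusted p = 0.0353). The *Pappa* call was lost without the block (adjusted p = 0.230), by DESeq2 (0.347) and with own-batch clusters (0.0851), and that of *Stc1* at the 5% limit (0.299). The log2 difference in each batch alone was 1.16 and 2.53 for *Igf2*, -3.63 and -1.72 for *Igfbp4* and 1.40 and 2.48 for *Stc1*.

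In the alveolar epithelium, AT1-like cells had 4 members higher than AT2-like cells and none lower, with 12.3% of all genes called, 5.96% higher and 6.34% lower. *Igfbp7* was at 14.1 and 9.96 UMIs per 10000 against 0.668 and 0.660 (log2 fold change 3.74 ± 0.43, SE, adjusted p = 5.62e-09). *Igfbp6* was at 2.76 and 5.66 against 0.371 and 0.286 (3.45 ± 0.44, adjusted p = 6.06e-08), and *Igfbp2* at 0.459 and 0.332 against 0 and 0.0307 (3.62 ± 0.87, adjusted p = 0.00277). The classes do not overlap for any of these 3 genes.

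*Igf1r* was at 0.276 and 0.694 in AT1-like cells and at 0.0989 and 0.102 in AT2-like cells, a log2 fold change of 2.17 ± 0.57 (adjusted p = 0.00585), from 3 and 46 UMIs. This was the only one of the 6 comparisons in which *Igf1r* was called, and without the block its adjusted p was 0.0501. *Htra1* was higher, with 34 UMIs against 1 (104-fold by pooled level, exact counting interval 17.4 to 4220, adjusted p = 9.47e-06). *Pik3ca*, the catalytic subunit of phosphoinositide 3-kinase, was lower (-1.38 ± 0.41, adjusted p = 0.0164), a call lost without the block (adjusted p = 0.145). The log2 difference in each batch alone was 0.77 and 2.17 for *Igf1r*, 2.27 and 3.89 for *Igfbp6* and 3.40 and 2.26 for *Igfbp2*.

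Lymphatic endothelial-like cells had 2 members higher and 2 lower than general capillary endothelial-like cells, with 10.9% of all genes called, 4.7% higher and 6.15% lower (366 and 479 genes, against 419 and 314 with DESeq2). Both ligands were higher. *Igf2* was at 12.1 and 26.3 UMIs per 10000 against 0.369 and 0.662, a log2 fold change of 5.04 ± 0.43 (SE, adjusted p = 1.74e-12), and *Igf1* at 1.24 and 1.81 against 0.130 and 0.0750, a log2 fold change of 3.89 ± 0.61 (adjusted p = 5.81e-06). The classes are far apart in both batches.

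*Igfbp3* (-1.57 ± 0.51, adjusted p = 0.0353) and *Igfbp7* (-1.43 ± 0.45, adjusted p = 0.0306) were lower. Neither was called without the block (adjusted p = 0.595 and 0.151) or by DESeq2 (adjusted p = 0.364 and 0.106), and in Batch 1 alone the log2 difference of *Igfbp3* was -0.0016 against -2.06 in Batch 2 alone. Of the pathway genes, the adaptor *Shc1* was higher (1.86 ± 0.49, adjusted p = 0.00772), a call lost without the filter on low counts (adjusted p = 0.0723).

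**Figure D4:**
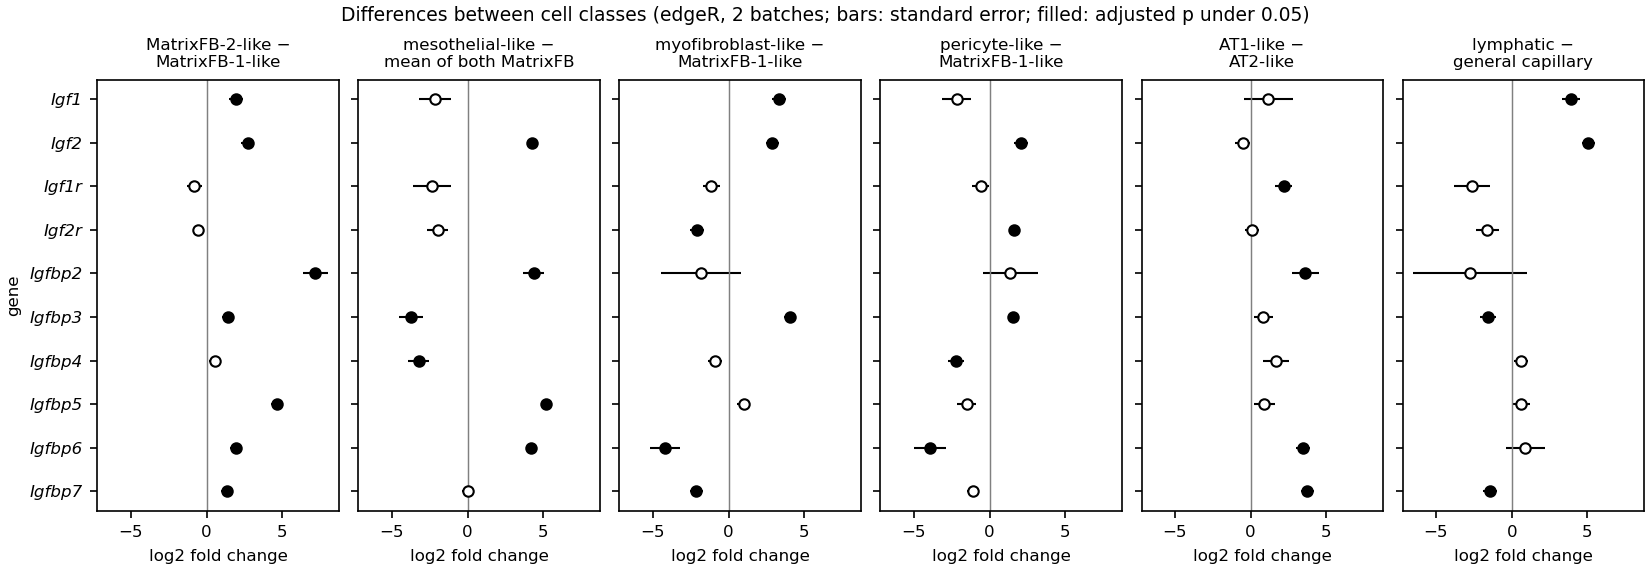
Log2 fold change of each member in the 6 comparisons of classes from edgeR over both batches, with bars of 1 standard error. Filled points have an adjusted p under 0.05. *Igfbp5* reaches 5.18 in mesothelial-like cells and *Igfbp2* 7.17 in MatrixFB-2-like cells, the latter against 2 UMIs in MatrixFB-1-like cells.

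Some members differed between the batches in most classes. The mean log2 difference of Batch 2 from Batch 1 over the 18 classes was 2.26 for *Igfbp3*, which was higher in Batch 2 in 17 of 18 classes, and 14 of 7786 genes (0.180%) had a mean difference at least as high. *Igf2* was higher by 1.17, in 16 of 18 classes. Both passed 2-fold, as did 6.09% of genes in this direction. *Igf1* was lower in Batch 2 by 0.734 on average, with 5 of 18 classes higher, and no member was lower by 2-fold, as 1% of genes were. With 1 mouse per batch the animal, the library and the depth cannot be told apart, and no test was possible. Where a class difference rests on these genes, the values of both batches are given above.

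**Figure D5:**
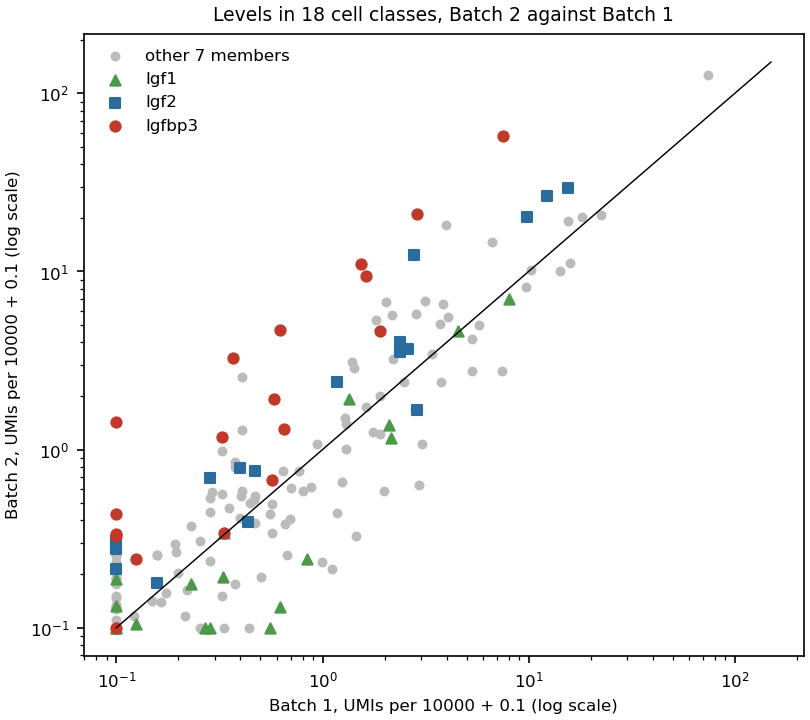
Level in Batch 2 (y axis) against Batch 1 (x axis) for each member in each of the 18 classes, as UMIs per 10000 plus 0.1, both on log scales, with a line of equal levels. *Igfbp3* (circles in red) lies above the line in 17 of 18 classes and *Igf2* (blue squares) in 16, while *Igf1* (green triangles) lies above it in 5.

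The genes most like each member in their levels over the 18 classes are given as a description, by the lower of the Pearson r in Batch 1 and Batch 2 on log2(UMIs per 10000 + 0.1), among 6040 genes with at least 100 UMIs in each batch. The points of a batch share a library, so r carries no p. *Igf2* was closest to *H19*, the imprinted RNA next to it (r = 0.915), then *Crtap* and *Aebp1*. *H19* was at 25.4 and 23.3 UMIs per 10000 in lymphatic endothelial-like cells and at 11.2 and 12.6 in mesothelial-like cells. *Igf2r* was closest to *Maged2* (0.851) and next to *Airn*, the antisense RNA of its locus (0.825), which was at 1.68 and 2.63 in pericyte-like cells, and then to *Matn2* (0.770).

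*Igfbp5* was closest to *Ltbp1* (0.882), *Selm* (0.831) and *Leprel4* (0.827). *Igfbp6* was closest to *Krt19* (0.813), *Msln* (0.801) and *Slc39a8* (0.770), and *Igfbp2* to *Msln* (0.719), *Ptn* (0.718) and *Slc39a8* (0.681), so both shared 2 of 3 genes. *Igfbp7* was closest to *Sparc* (0.827), *Igfbp3* to *Tgfbr3* (0.807), *Igfbp4* to *Fyn* (0.725), *Igf1* to *Gpr64* (0.697) and *Igf1r* to *Setbp1* (0.705). Among the members themselves, *Igfbp2* and *Igfbp6* were most alike (r = 0.852 and 0.847 in the batches), followed by *Igf2* and *Igfbp5* (0.812 and 0.783).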

How the data were processed

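Counts were deposited by the authors as 1 table per batch of UMI counts per gene and cell, made from Drop-seq reads of 1 mouse lung each that were aligned to mm10. The submitters' processing notes name Bowtie2 2.2.7. Whether counting used strand is not given in the sources used here. The deposited tables hold cells with at least 500 genes, and no column of another sample. The members and gene lists were chosen with earlier results of these data known.

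Cells with at most 10% mitochondrial UMIs were kept. They were clustered (scanpy 1.11.5, leidenalg 0.10.2) on 2000 variable genes, 40 principal components, 20 neighbours and a resolution of 0.6, then within clusters, without members, pathway or cell cycle genes, giving 30 clusters. Classes were named from marker lists, and clusters that carried markers of several types were left unnamed or set aside (61 and 85 cells). B and T/NK/ILC-like cells served as the reference, presumed to make no IGFs or binding proteins, and this does not cover the receptors. Erythroid-like cells, planned as a second reference, had only 2 cells in Batch 1. When each batch was clustered on its own, 86.9% of cells had the same class. Each of these clusters took the most frequent joint class of its cells, so part of this agreement is built in. Scrublet called 0.544% and 2.1% of cells doublets, which stayed in and were removed as an alternative.

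UMIs were summed by class and batch for the 18 named classes with at least 10 cells in both batches (21259 to 3864586 UMIs per sum). These sums were tested with edgeR 4.0.16 (R 4.3.3, TMM, filterByExpr, quasi-likelihood, class plus batch) over 7786 genes with Benjamini-Hochberg adjustment at 0.05, all 18 classes sharing 1 estimate of the spread. Batch is the mouse, so it pairs the sums. Over 153 pairs of classes, deviations from class means correlated within a batch with a median r of 0.144 (0.017 to 0.551), and 76.5% were over 0.1. Tested on simulated data for MatrixFB-2-like against MatrixFB-1-like cells (7229 genes), 12.5%, 66.1% and 86.8% of genes changed 2-, 4- and 8-fold were found. Detection was repeated with cells thinned to 600 UMIs (seed 1), and intervals are Wilson 95% for shares and exact for ratios of counts. Named genes were the 10 members, the pathway genes past the threshold and the 3 genes most like each member. *Sfrp2* was added after its values were seen. A pathway result is not reported here. DESeq2 1.42.0, no batch block, no filter on low counts, only the classes compared, a mitochondrial limit of 5%, own-batch clusters, removed doublets and each batch alone were the alternatives.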

Additional observations from a re-analysis of the deposited data

Results flagged for a closer look

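The 1940 Batch 2 cells over the mitochondrial limit entered no comparison, and all 10 members had UMIs in them above the floor of 3 counts, 0.00596 UMIs per 10000. These cells held 5030373 UMIs, with a median of 1957 UMIs and 12.9% mitochondrial UMIs per cell. In them *Igf1* was at 0.298 UMIs per 10000 (0.318 in the kept Batch 2 cells), *Igf2* at 1.88 (1.69), *Igf1r* at 0.334 (0.325) and *Igf2r* at 0.837 (0.599). *Igfbp2* was at 0.231 (0.200), *Igfbp3* at 2.58 (3.39) and *Igfbp4* at 1.31 (1.86). *Igfbp5* was at 1.75 (1.70), *Igfbp6* at 0.811 (0.744) and *Igfbp7* at 3.14 (3.20). Cell classes were not assigned to these cells, so differences in makeup were not tested.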

How the results depend on the processing

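Without the batch block, 3 members and 56 genes were called in MatrixFB-2-like against MatrixFB-1-like cells and 2 members and 453 genes in the lymphatic comparison. In the myofibroblast, pericyte and AT1 comparisons 386, 502 and 500 genes were then called. Of the 32 member calls, 10 were lost without the block, 8 by DESeq2 and 1 without doublets. Another 5 were lost at a mitochondrial limit of 5% and 3 with own-batch clusters, but these 2 settings retested only part of the 32. At the 5% limit the 6 mesothelial calls and those of *Igfbp2* could not be retested. With own-batch clusters the 6 mesothelial and 6 myofibroblast calls could not. DESeq2 called 4 members in the fibroblast comparison, 3 in the pericyte and 2 in the lymphatic comparison. The 5% limit left 4 members and 94 genes in the fibroblast and 3 members and 587 genes in the pericyte comparison, and *Igfbp2* was not tested under it. Fitting only the classes compared called 811 genes in the fibroblast and 1579 in the AT1 comparison, and added calls for *Igfbp4* (fibroblasts) and *Igfbp7* (pericytes). Counting mesothelial-like cells as MatrixFB-2-like, chosen after seeing the data, called 311 genes. The cause of these changes was not tested.

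No called difference changed sign under these alternatives where it could be computed. Of those not called, *Igfbp7* in mesothelial-like cells went to -0.052 without the block and -0.12 without the filter on low counts. *Igfbp2* went to 0.84 (myofibroblasts) and 0.011 (lymphatic) by DESeq2 and to -0.090 (pericytes) with own-batch clusters. *Igf2r* in AT1-like cells went to -0.22 with own-batch clusters and -0.015 without doublets. In lymphatic cells *Igfbp5* went to -0.55 with own-batch clusters and *Igfbp6* to -3.59 at the 5% limit. The mesothelial comparison could not be computed at the 5% limit or with own-batch clusters, nor the myofibroblast comparison with own-batch clusters, for lack of cells in a class. With 11 to 20 mesothelial-like cells per batch, genes at 1 to 3 UMIs have wide counting intervals.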
